A study of Homo sapiens with 10 samples.

Results

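The p53 pathway genes described here are MDM2, MDM4, CDKN1A, ZMAT3, SESN1, GADD45A, TP53INP1, RRM2B and BTG2, a set of 2 inhibitors of p53 and of genes that p53 is known to switch on. They were matched by Ensembl gene ID, which found all 9 among the 26346 genes of the deposited files, and all 9 passed the filter on low values (0.5 RPKM or more on average), as did 13630 genes in all. RPKM counts reads per kilobase of transcript and per M reads (M for mega), so it can be compared between genes. The libraries came from EndoC-βH1 cells, a human beta cell line that makes insulin. In 5 libraries the cells had received SRp55 siRNA, given in the design as siSR#2, and in 5 they had received control siRNA, given as siCTL. Every sample title in both groups also carries the word exposed, and the titles do not say to what. SRp55, the product of SRSF6, belongs to the SR proteins, which bind exons and steer splicing. The series describes the preparations as independent, and polyadenylated RNA was sequenced. A single siRNA against SRp55 was used, so its effect on the target cannot be told apart from any effect on other transcripts. As background, the line was made with SV40 large T antigen, a viral protein that binds and inactivates p53, and cells of both groups carry it.

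As background, p53 is a transcription factor that is kept low in unstressed cells. MDM2 is a ubiquitin ligase that marks p53 for degradation, and MDM4 is its close relative, which binds p53 and blocks its activity. DNA damage and other stress release p53, which then raises genes that halt the cell cycle, repair DNA, limit oxidative stress or start apoptosis, and MDM2 itself, which closes a feedback loop. Beta cells divide rarely, and in them the same pathway has been tied to apoptosis and to limits on proliferation.

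Between 94.7 and 189.8 M reads per library were assigned to transcripts in SRp55 siRNA libraries, against 61.9 to 159.2 M in control siRNA libraries. Of the read total implied by the RPKM values, these made up 87.0% ± 7.24 with SRp55 siRNA and 82.1% ± 6.82 with control siRNA (SD, n = 5). This share was highest in SRp55 siRNA replicate 1, at 96.5%, and among control siRNA libraries in replicate 4, at 90.9%. Its part in the RPKM results below was not tested. SRSF6 lay between 21.0 and 31.1 RPKM in SRp55 siRNA libraries, against 92.4 to 100.0 RPKM in control siRNA libraries. All 16 beta cell markers were measured, and 2 of them were called on RPKM sums, where 5.02% of all tested genes were called. The summed level of these markers ranged from 18898 to 28987 RPKM in SRp55 siRNA libraries, against 13424 to 25622 RPKM in control siRNA libraries. PRSS1, an acinar cell marker, was listed at 0 in every library. Markers of acinar and duct cells summed to 41.9 to 99.5 RPKM in SRp55 siRNA libraries and 39.4 to 89.7 RPKM in control siRNA libraries, with none of the 3 tested called. For other islet endocrine cells the sums were 56.0 to 210 RPKM with SRp55 siRNA and 64.9 to 253 RPKM with control siRNA, with none of 4 called. Mesenchymal, endothelial and immune markers summed to 45.5 to 64.5 RPKM with SRp55 siRNA and 42.5 to 61.9 RPKM with control siRNA. Of these, 1 of 3 tested was called, against the same 5.02% of all genes. The part of any of the markers of these cell types in the results below was not tested. In these bulk samples, fewer cells of a type and less RNA per cell cannot be told apart.

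ZMAT3 fell in cells given SRp55 siRNA, and it was the only one of the 9 genes called at an adjusted p under 0.05 on summed RPKM. CDKN1A, GADD45A and SESN1 were higher in all 5 replicate pairs on both scales, as were BTG2 on summed RPKM alone and MDM4 on summed reads alone. How many of all tested genes were higher in all 5 pairs was not counted. CDKN1A and GADD45A passed the test on summed reads and in the fit with a replicate block. The inhibitor MDM4 was also higher in summed RPKM, without passing the test, and MDM2, SESN1, TP53INP1, RRM2B and BTG2 did not pass it on either scale. The test was limma's on log2(RPKM + 0.5), with Benjamini-Hochberg adjustment over all genes tested, and it called 684 of the 13630 genes (5.02%), 513 of them higher and 171 lower. On reads summed per gene and scaled per M assigned reads (RPM), limma called 3 of the 9 genes, namely CDKN1A, ZMAT3 and GADD45A, against 17.2% of all genes. Replicate numbers pair the libraries, and with the replicate number as a block the RPKM fit also called CDKN1A, ZMAT3 and GADD45A, against 13.1% of all genes. The block on summed reads added SESN1 and so called 4 of 9, against 36.3% of all genes. With median-of-ratios scaling of the RPKM sums, CDKN1A and ZMAT3 were called, against 6.85% of all genes, of which 433 were higher and 500 lower.

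Log2 fold changes are SRp55 siRNA over control siRNA, less that of the median tested gene, which itself shifted by 0.11 on the log2 RPKM scale, by 0.01 after median-of-ratios scaling and by -0.01 on summed reads. The tests themselves were run without taking off this shift. Of the 9 genes, 6 lay above the median tested gene on the RPKM scale, with a median log2 fold change of 0.21, and 5 did so on summed reads, with a median of 0.08. ZMAT3 and GADD45A had no overlap between groups on either scale, which is 2 of 9 against 7.92% of all tested genes on RPKM and 13.8% on summed reads. The value in each library is drawn in the plot of gene levels by library.

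**Figure D1:**
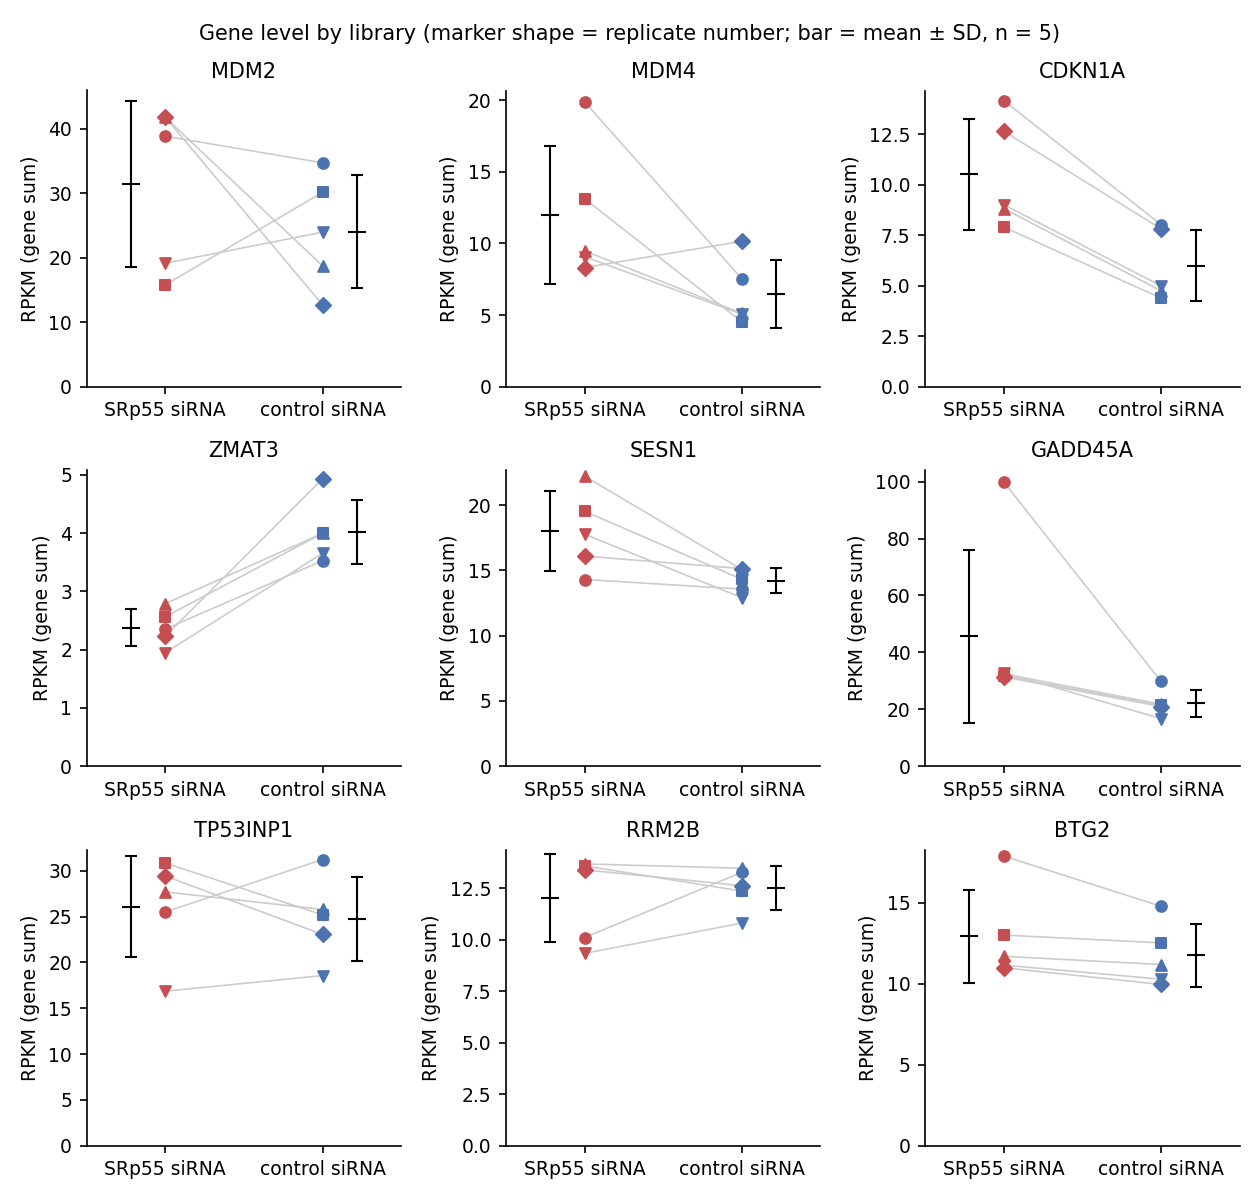
Gene level in RPKM (vertical axis, summed over transcripts) of each of the 9 genes, with the 5 SRp55 siRNA libraries in red at the left and the 5 control siRNA libraries in blue at the right; marker shape and grey lines join equal replicate numbers, and black bars give the mean ± SD. ZMAT3 lies between 1.95 and 2.79 RPKM in SRp55 siRNA libraries, below every control siRNA library, and GADD45A has 1 SRp55 siRNA library at 99.9 RPKM.

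**Figure D2:**
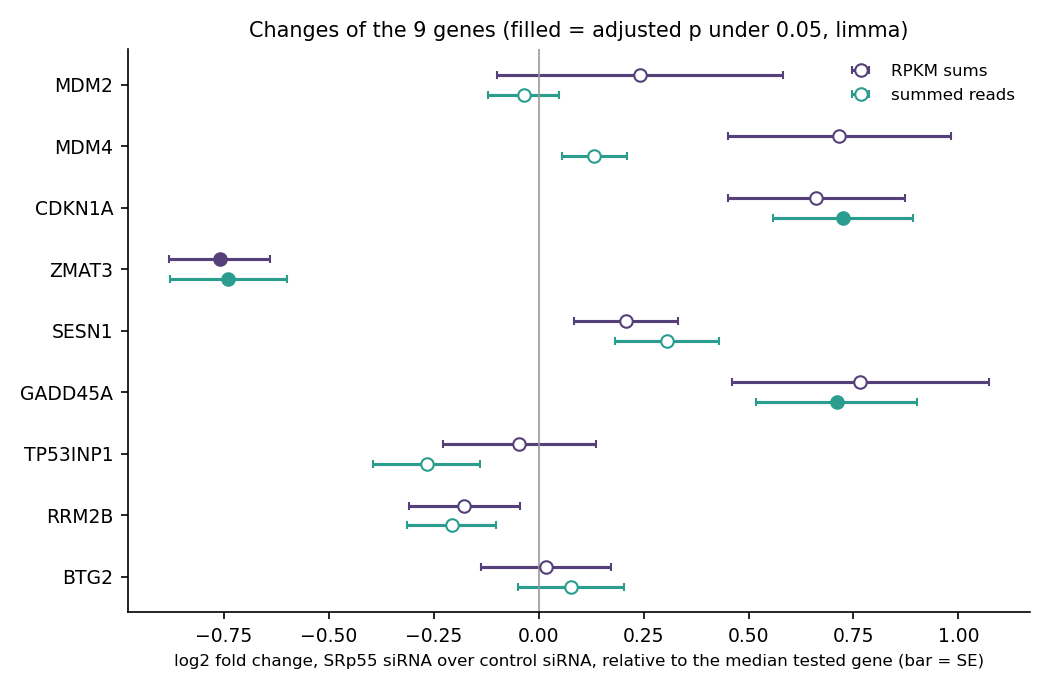
Log2 fold change (horizontal axis, SRp55 siRNA over control siRNA, relative to the median tested gene) of the 9 genes on RPKM sums and on summed reads, with bars for the SE and filled points where limma's adjusted p is under 0.05. ZMAT3 is filled on both scales, CDKN1A and GADD45A on summed reads, and MDM4 moves from 0.72 on RPKM sums to 0.13 on summed reads.

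Per kilobase, GADD45A had the highest mean in SRp55 siRNA libraries, at 45.7 ± 30.3 RPKM, followed by MDM2 at 31.5 ± 12.9 and TP53INP1 at 26.1 ± 5.52 RPKM (SD, n = 5). The place of GADD45A above MDM2 rested on replicate 1, since its median was 32.4 RPKM and that of MDM2 38.9 RPKM. The range of MDM2 overlapped those of GADD45A and TP53INP1. Every SRp55 siRNA library of GADD45A, from 31.4 RPKM up, lay above every one of TP53INP1, which reached 30.8 RPKM. In control siRNA libraries TP53INP1 averaged 24.8 ± 4.59, MDM2 24.1 ± 8.79 and GADD45A 22.1 ± 4.74 RPKM, and these 3 levels lay within each other's spread. ZMAT3 was the lowest of the 9 in both groups. Between these ends lay SESN1, RRM2B, BTG2, MDM4 and CDKN1A, in that order in control siRNA libraries, and RRM2B, at 12.5 ± 1.05 RPKM there, and BTG2, at 11.7 ± 1.97 RPKM, lay within each other's spread, as did MDM4 at 6.48 ± 2.36 RPKM and CDKN1A at 5.99 ± 1.77 RPKM.

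MDM2 (ENSG00000135679.17, chr12:69201956-69239214, plus strand, GRCh37) is both the main inhibitor of p53 and one of its targets. Its summed level was 38.9, 15.8, 41.8, 41.8 and 19.2 RPKM in SRp55 siRNA replicates 1 to 5, against 34.7, 30.2, 18.7, 12.7 and 24.0 RPKM in control siRNA replicates 1 to 5. The groups overlapped, and 3 of 5 pairs were higher with SRp55 siRNA. On reads the gene barely varied, with 96.8, 96.7, 105, 104 and 84.7 RPM in SRp55 siRNA replicates, against 109, 107, 107, 88.2 and 93.7 RPM in control siRNA replicates. Relative to the median gene MDM2 had a log2 difference of 0.24 (SE 0.34, adjusted p = 0.59 by limma) on RPKM sums and -0.04 (SE 0.08, adjusted p = 0.73) on summed reads, so its sign depended on the scale. The coefficient of variation of the MDM2 level was 41.0% in SRp55 siRNA and 36.5% in control siRNA libraries on RPKM, against 8.14% in SRp55 siRNA and 9.16% in control siRNA libraries on reads.

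MDM4 (ENSG00000198625.8, chr1:204485511-204542871, plus strand, GRCh37) encodes the inhibitor that binds the activation domain of p53 without being an effective ubiquitin ligase itself. Its level was 19.9, 13.1, 9.49, 8.31 and 9.07 RPKM in SRp55 siRNA replicates 1 to 5, against 7.53, 4.52, 5.12, 10.2 and 5.06 RPKM in control siRNA replicates 1 to 5. Only control replicate 4 reached into the range of the SRp55 siRNA libraries. In RPM MDM4 stood at 32.3, 32.4, 29.7, 27.9 and 32.2 with SRp55 siRNA, against 31.6, 27.9, 26.7, 27.0 and 29.0 with control siRNA, so the groups overlapped while 5 of 5 pairs were higher with SRp55 siRNA. MDM4 thus had a log2 difference of 0.72 (SE 0.27, adjusted p = 0.10 by limma) on RPKM sums and 0.13 (SE 0.08, adjusted p = 0.32) on summed reads. Without control replicate 4 the RPKM difference passed the test, with a log2 fold change of 0.84 and an adjusted p of 0.039. That fit also called more of all 13630 tested genes, 1085 (932 higher and 153 lower) against 684 with every library.

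MDM4 is known for a splicing switch. Skipping of its exon 6 shifts the reading frame and gives a short product, and inclusion of the exon is needed for full-length MDM4 protein. The exon has 68 bases, at chr1:204537430-204537497 on the plus strand of GRCh38 in GENCODE 44, and joins exon 5, at chr1:204532191-204532246. Both joins are shown because the transcripts counted below differ in them, with lower case for the last 15 bases of exon 5 and capitals for the first 15 bases of the exon that follows.
MDM4 exon 5 to exon 6: ccactgctactacagATGCTGCTCAGACTC
MDM4 exon 5 to exon 7: ccactgctactacagCAAAGTGCAGAGGAA
The files hold values per transcript and none per junction, so the share of each join was not measured directly.

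The files list 13 MDM4 transcripts, of which 12 had a value in some library. The longest, ENST00000367182.3, has 10073 bases, includes exon 6 and encodes the full-length protein. Its level was 1.33, 1.24, 1.35, 1.95 and 1.61 RPKM in SRp55 siRNA replicates 1 to 5, against 1.24, 1.11, 1.57, 1.63 and 1.62 RPKM in control siRNA replicates 1 to 5. These ranges overlapped almost fully. As a share of the summed MDM4 RPKM it held 14.3% ± 6.65 in SRp55 siRNA and 23.9% ± 7.52 in control siRNA libraries (SD, n = 5), and of the MDM4 reads it held 57.0% ± 14.6 with SRp55 siRNA and 62.6% ± 13.4 with control siRNA. An exact permutation test, two-sided, of the share of RPKM gave p = 0.079, or 0.24 adjusted over the 3 single values tested, and the smallest p this design allows is 0.0079.

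ENST00000391947, ENST00000470908, ENST00000471783 and ENST00000507825 lack exon 6 in their GENCODE 44 structure. Together these transcripts held 10.9, 30.8, 39.6, 32.5 and 61.1% of MDM4 RPKM in SRp55 siRNA replicates 1 to 5, against 32.2, 26.4, 25.5, 44.4 and 27.7% in control siRNA replicates 1 to 5. The SRp55 siRNA libraries thus spread over and beyond the whole range of the control siRNA libraries. Of MDM4 reads these transcripts held 13.3% ± 4.17 with SRp55 siRNA and 8.62% ± 4.99 with control siRNA (SD, n = 5), with 4 of 5 pairs higher and the groups overlapping. The largest of them was ENST00000470908.1, a transcript of 884 bases with no annotated coding sequence, at 0, 0, 3.76, 1.28 and 3.02 RPKM with SRp55 siRNA, against 2.19, 1.19, 0.474, 3.21 and 0.908 RPKM with control siRNA. ENST00000391947.2 also lacks exon 6, but the files give it 1405 bases where GENCODE 44 gives 10008, so its structure in the authors' annotation may differ, and ENST00000507825.2 has 863 bases in the files against 481. ENST00000367183.3 also lacks exon 6 in GENCODE 44, within a skip of exons 3 to 10, and was left out of this group. It held 5.81% ± 3.54 of MDM4 RPKM with SRp55 siRNA and 1.23% ± 1.69 with control siRNA (SD, n = 5). Its share was higher in 5 of 5 pairs, with the groups overlapping. The files give it 646 bases where GENCODE 44 gives 9098. The group of transcripts was put together after the values were seen, and neither the group nor ENST00000367183.3 was tested.

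Much of the MDM4 difference in RPKM lay in short transcripts. ENST00000470797.1, of 909 bases and with no annotated coding sequence, stood at 10.7, 0.340, 0.227, 1.58 and 0.233 RPKM in SRp55 siRNA replicates 1 to 5, against 1.07, 0.150, 0.959, 0.758 and 0.870 RPKM in control siRNA replicates 1 to 5. SRp55 siRNA replicate 1 alone was high, where this transcript made up 53.9% of the gene's RPKM. The 2 MDM4 transcripts over 5000 bases together held 8.30, 18.4, 25.7, 23.5 and 21.3% of RPKM with SRp55 siRNA, against 41.1, 56.2, 38.05, 17.8 and 38.7% with control siRNA, again with control replicate 4 apart from its group. A read assigned to a short transcript adds more to a summed RPKM than one assigned to a long transcript, by the definition of the unit. The length limit was chosen after the values were seen, so no test is given.

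**Figure D3:**
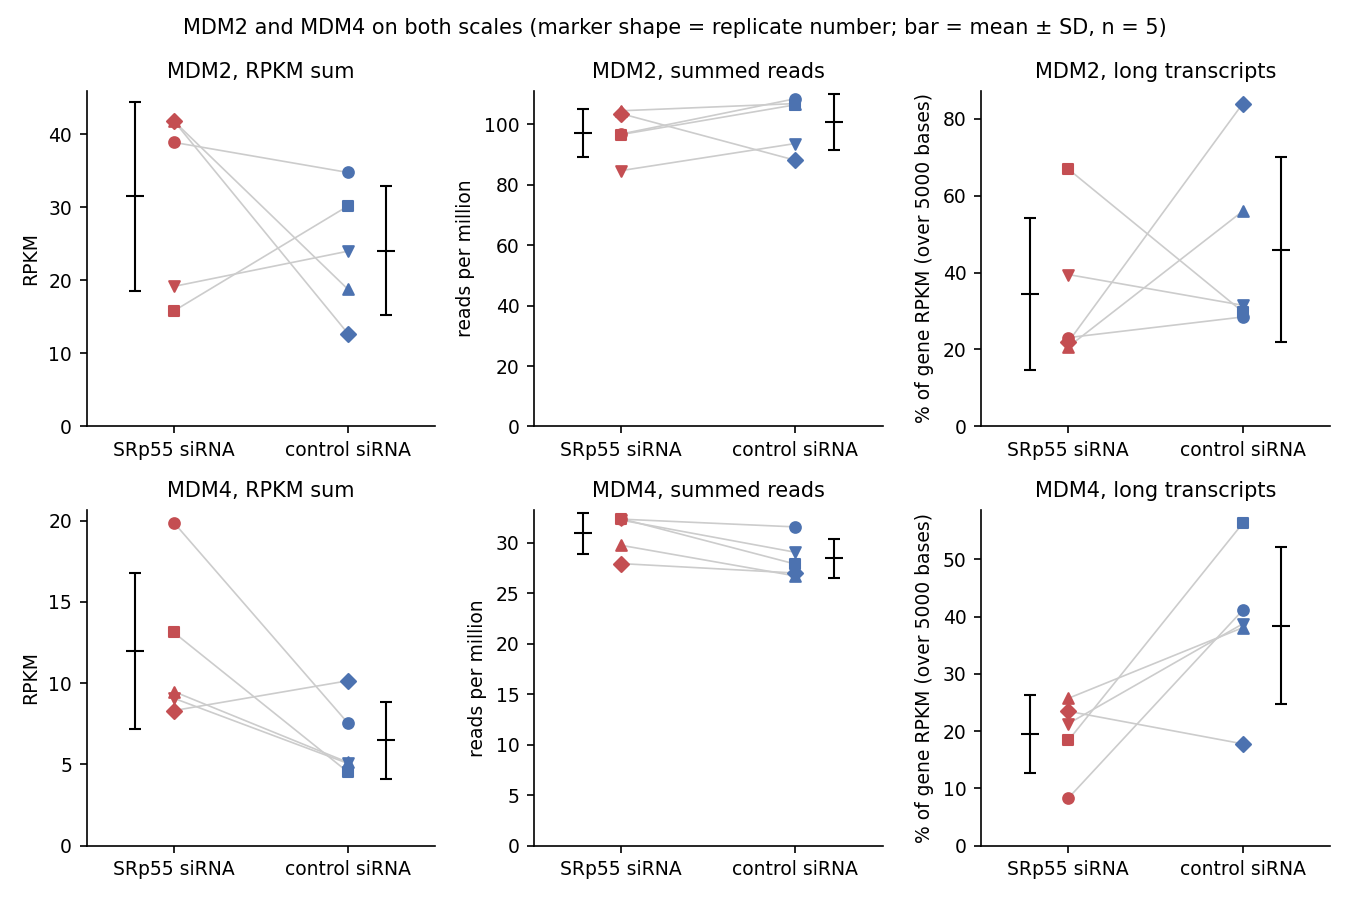
MDM2 (upper row) and MDM4 (lower row) as RPKM sums, as RPM, and as the percent of the gene's RPKM in transcripts over 5000 bases, with SRp55 siRNA libraries in red at the left and control siRNA libraries in blue at the right; marker shape is the replicate number and bars give the mean ± SD (n = 5). The RPKM sums scatter widely while the RPM stay within 84.7 to 109 for MDM2 and 26.7 to 32.4 for MDM4.

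For MDM2 the files list 37 transcripts, 33 of them with a value in some library. The leading one, ENST00000462284.1, has 7381 bases and no entry in GENCODE 44. It held 17.8, 61.8, 15.3, 16.9 and 25.7% of MDM2 RPKM in SRp55 siRNA replicates 1 to 5, against 21.5, 22.2, 51.6, 80.9 and 22.6% in control siRNA replicates 1 to 5. In each group some libraries lay near 20% and others above 50%, and the exact two-sided permutation test gave p = 0.42, or 0.49 adjusted over the 3 single values. Of MDM2 reads it took 61.3% ± 14.8 with SRp55 siRNA and 70.6% ± 17.1 with control siRNA (SD, n = 5; exact permutation p = 0.25).

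Short coding transcripts of MDM2 came and went between libraries of the same group. ENST00000539479.1, of 845 bases, was listed at 0 in SRp55 siRNA replicates 1 and 2 and in control replicates 3 and 4, and held up to 18.2% of MDM2 RPKM with SRp55 siRNA and up to 20.4% with control siRNA. GENCODE 44, the source of its coding label, gives it 2523 bases, so its structure in the authors' annotation may differ. ENST00000393410.1, of 732 bases, was at 0 in 5 of the 10 libraries and reached 17.6% with SRp55 siRNA and 11.7% with control siRNA. Transcripts annotated as targets of nonsense-mediated decay, the pathway that removes mRNAs with early stop codons, made up 22.1% ± 9.48 of MDM2 RPKM with SRp55 siRNA and 16.9% ± 7.43 with control siRNA (SD, n = 5), with 3 of 5 pairs higher.

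**Figure D4:**
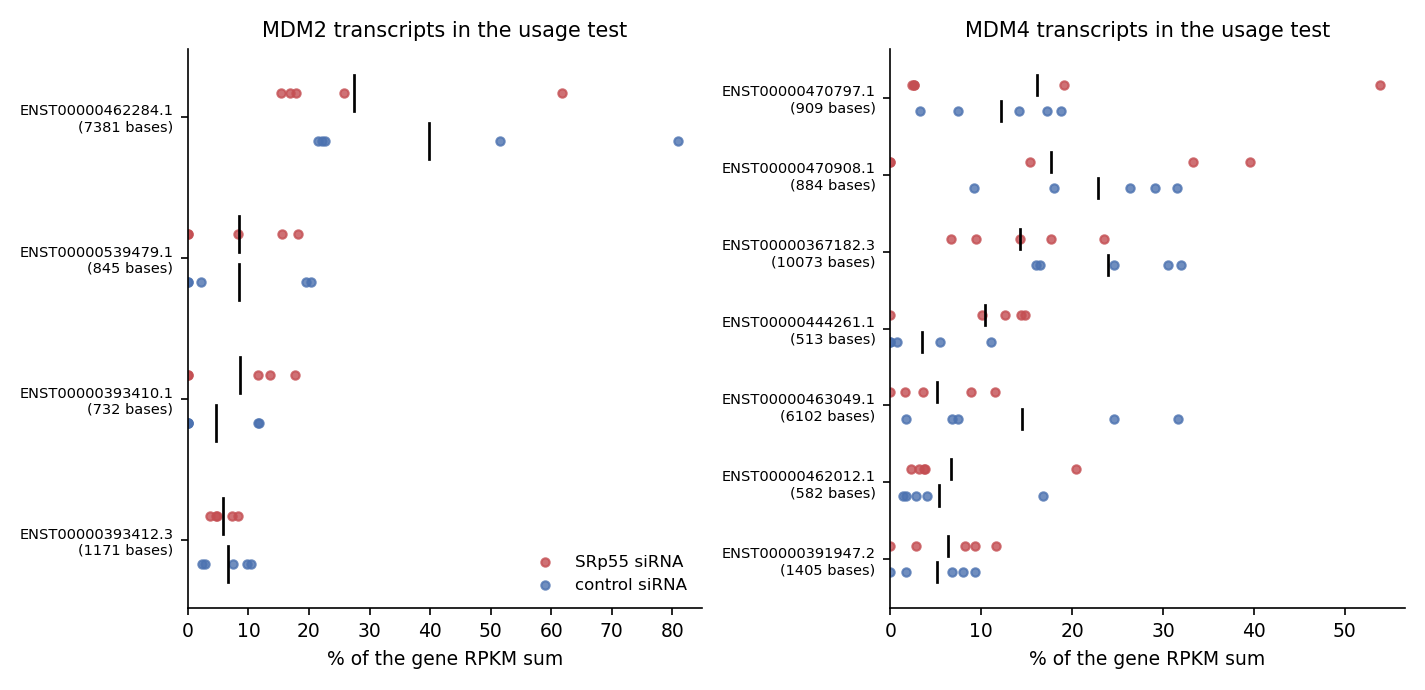
Percent of the gene's RPKM sum (horizontal axis) held by each MDM2 and MDM4 transcript that averaged 0.5 RPKM and 5% of its gene or more, with 1 point per library, SRp55 siRNA in red above control siRNA in blue, and a black line at each group's mean. The 2 groups overlap for every transcript drawn, and for several of them points of the same group lie both at 0 and above 10%.

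The ratio of MDM4 to MDM2 in summed RPKM was 0.448 ± 0.256 in SRp55 siRNA and 0.330 ± 0.267 in control siRNA libraries (SD, n = 5; exact two-sided permutation p = 0.49). In reads the same ratio was 0.321 ± 0.044 with SRp55 siRNA and 0.284 ± 0.027 with control siRNA (exact two-sided permutation p = 0.14). The difference was within the spread between libraries on both scales. Over the 10 libraries the levels most like that of MDM2 were those of MAPK10 (Pearson r = 0.92 of log2(RPKM + 0.5)), FIG4 and PRPF38B, and those most like that of MDM4 were UCHL1 (r = 0.97), GSG1 and RAC3. These correlations are a description over 10 libraries of 2 groups, in which libraries of equal replicate number deviated together.

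In limma's diffSplice F test of transcript usage, none of the 8 members with at least 2 transcripts past the filter was called, against 0.343% of the 9919 genes tested. A call needed an adjusted p under 0.05 and a shift of at least 10 percentage points. CDKN1A had 1 such transcript and was not tested. There was 1 member with an unadjusted p under 0.05, TP53INP1 (adjusted p = 0.23), and the next lowest adjusted p was 0.88.

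CDKN1A (ENSG00000124762.9, chr6:36644305-36655116, plus strand, GRCh37) encodes p21, the inhibitor of cyclin-dependent kinases through which p53 halts the cell cycle. Its level was 14.2, 7.90, 8.81, 12.6 and 9.005 RPKM in SRp55 siRNA replicates 1 to 5, against 8.02, 4.38, 4.74, 7.81 and 4.99 RPKM in control siRNA replicates 1 to 5. The lowest SRp55 siRNA library lay just under the highest control siRNA library, and within each of the 5 pairs the SRp55 siRNA library was higher. In RPM CDKN1A stood at 32.1, 18.8, 21.3, 29.4 and 24.0 with SRp55 siRNA, against 19.0, 12.1, 12.7, 18.0 and 13.7 with control siRNA.

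The mean RPKM of CDKN1A with SRp55 siRNA was 1.75 times that with control siRNA. Its log2 fold change was 0.66 on RPKM sums (SE 0.21, limma adjusted p = 0.062) and 0.73 on summed reads (SE 0.17, adjusted p = 0.012). With the replicate block the adjusted p was 0.0071 on RPKM sums and 0.00028 on summed reads, and with median-of-ratios scaling it was 0.034. On summed reads CDKN1A was called in all 10 fits that left out 1 library, and on RPKM sums in 1 of them, the one without control replicate 4 (adjusted p = 0.037). The latter fit called 1085 of all 13630 tested genes, against 684 with every library. Its main transcript, ENST00000244741.5, held 87.8% ± 6.02 of the RPKM with SRp55 siRNA and 94.8% ± 3.59 with control siRNA (SD, n = 5).

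GADD45A (ENSG00000116717.7, chr1:68150744-68154021, plus strand, GRCh37) encodes a small protein that acts in growth arrest, DNA repair and stress kinase signalling, and other stress pathways besides p53 are known to induce it. Its level was 99.9, 31.7, 32.4, 31.4 and 32.9 RPKM in SRp55 siRNA replicates 1 to 5, against 29.8, 21.5, 21.8, 21.0 and 16.7 RPKM in control siRNA replicates 1 to 5. Every SRp55 siRNA library was above every control siRNA library, and replicate 1 was the highest of each group. In RPM the values were 109, 54.4, 54.8, 50.4 and 62.3 with SRp55 siRNA, against 49.8, 40.7, 39.9, 33.5 and 32.9 with control siRNA, again without overlap.

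In SRp55 siRNA replicate 1 the transcript ENST00000370985.3, of 803 bases, stood at 62.3 RPKM, while it reached at most 0.670 RPKM in the other 9 libraries. The main transcript of GADD45A, ENST00000370986.4, was at 36.2, 30.1, 30.5, 29.3 and 30.8 RPKM in SRp55 siRNA replicates 1 to 5, against 28.1, 20.9, 21.0, 19.6 and 15.9 RPKM in control siRNA replicates 1 to 5, so this transcript alone also separated the groups. The log2 fold change of the gene was 0.77 on RPKM sums (SE 0.31, limma adjusted p = 0.13) and 0.71 on summed reads (SE 0.19, adjusted p = 0.026), and with the replicate block the adjusted p on RPKM sums was 0.039. Without SRp55 siRNA replicate 1 the log2 fold change on RPKM sums was 0.48 (adjusted p = 0.073). On summed reads GADD45A was called in 8 of 10 fits without 1 library, and lost without control replicate 4 or control replicate 5, with adjusted p up to 0.063.

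BTG2 (ENSG00000159388.5, chr1:203274619-203278730, plus strand, GRCh37) encodes an antiproliferative protein that promotes shortening of mRNA poly(A) tails. It ranged from 10.98 to 17.9 RPKM, with a median of 11.7, in SRp55 siRNA libraries, against 9.95 to 14.8 RPKM, with a median of 11.2, in control siRNA libraries. In RPKM, without taking off the median shift of 0.11, the SRp55 siRNA library was the higher in each of the 5 pairs. In RPM it was the higher in 4 of 5 pairs. The groups overlapped nearly fully. BTG2 had a log2 fold change of 0.02 on RPKM sums (SE 0.16, limma adjusted p = 0.68) and 0.08 on summed reads (SE 0.13, adjusted p = 0.77). SRp55 siRNA replicate 1 was the highest of its group for BTG2, as it was for MDM4, CDKN1A and GADD45A, and control replicate 1 was the highest of its group for BTG2, CDKN1A and GADD45A.

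ZMAT3 (ENSG00000172667.6, chr3:178735011-178790067, minus strand, GRCh37), also called WIG1 or PAG608, encodes a zinc finger protein that binds RNA, and in human and mouse cells it acts in the p53 response through mRNA stability and splicing. Its level was 2.35, 2.56, 2.79, 2.23 and 1.95 RPKM in SRp55 siRNA replicates 1 to 5, against 3.53, 4.00, 4.00, 4.94 and 3.66 RPKM in control siRNA replicates 1 to 5. The groups did not overlap, and each SRp55 siRNA library was below its paired control siRNA library. In RPM ZMAT3 stood at 15.6, 23.8, 24.1, 22.1 and 16.1 with SRp55 siRNA, against 32.1, 33.7, 41.6, 30.5 and 33.1 with control siRNA.

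The mean RPKM of ZMAT3 with SRp55 siRNA was 0.591 times that with control siRNA, and the ratio was 0.594 in RPM. Its log2 fold change was -0.76 on RPKM sums (SE 0.12, limma adjusted p = 0.015) and -0.74 on summed reads (SE 0.14, adjusted p = 0.0033). ZMAT3 was called in the main RPKM fit and all 18 alternatives to it, with adjusted p between 0.0033 and 0.042. The long transcript ENST00000311417.2, of 9406 bases, was at 1.46, 2.06, 2.05, 2.07 and 1.20 RPKM with SRp55 siRNA, against 2.86, 2.58, 3.46, 2.71 and 2.48 RPKM with control siRNA, so the groups did not overlap for this transcript either. It held 74.1% ± 13.1 of ZMAT3 RPKM with SRp55 siRNA and 70.9% ± 12.8 with control siRNA (SD, n = 5). The levels most like that of ZMAT3 over the 10 libraries were those of GYG1 (Pearson r = 0.97), KREMEN1 and EXD2, as a description.

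Among its close relatives, ZMAT2 averaged 43.7 ± 9.87 RPKM with SRp55 siRNA and 58.1 ± 7.05 RPKM with control siRNA (SD, n = 5), with a limma adjusted p of 0.17 on RPKM sums and 0.0016 on summed reads. ZMAT1 and ZMAT4 were both under 1 RPKM on average in each group and were not called on either scale.

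The long 3′ untranslated region (UTR) of ZMAT3, of 7794 bases in GENCODE 44 (GRCh38), was searched on the sense strand for the word AGGCTT and for its extensions CAGGCTT and AGGCTTA, which overlap it and had been picked in an earlier analysis of the same data. It holds 4 copies of AGGCTT, of which 1 is extended to CAGGCTT and 1 to AGGCTTA. MDM4 holds 3 copies in 8438 bases, and MDM2 holds 1 in 5695 bases. All 4 sites of ZMAT3 are shown, with the extended MDM4 and MDM2 sites beside them for comparison, and the capitals mark the word AGGCTT.
ZMAT3 chr3:179020542-179020567, minus strand: agtttaatgcAGGCTTttgaacagat
ZMAT3 chr3:179017698-179017723, minus strand: aaaccaagggAGGCTTtagaaccctt
ZMAT3 chr3:179017539-179017564, minus strand: tgtcatacagAGGCTTaagatctgtg
ZMAT3 chr3:179017279-179017304, minus strand: tttctgataaAGGCTTgacattatta
MDM4 chr1:204556697-204556722, plus strand: aattgaggtcAGGCTTccttcttaca
MDM2 chr12:68845096-68845121, plus strand: gtaggtctgtAGGCTTatgatggtaa

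TP53INP1 holds 2 copies, 1 of them extended to CAGGCTT, and the 3′ UTRs of CDKN1A, GADD45A, BTG2, SESN1 and RRM2B hold none. Genes with such words had longer 3′ UTRs, with a median of 2728 bases in the 36.9% of 12635 tested genes that hold AGGCTT, against 797 bases in those that do not. The median log2 fold change on RPKM sums was -0.05 in genes with the word and 0.04 in genes without it, and -0.08 in the 304 genes (2.41%) with 4 or more copies. CAGGCTT was found in 15.4% of these 3′ UTRs and AGGCTTA in 9.13%. The words had been picked in an earlier analysis of the same data, so the medians above are a description. They are no test of a link between word and change.

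**Figure D5:**
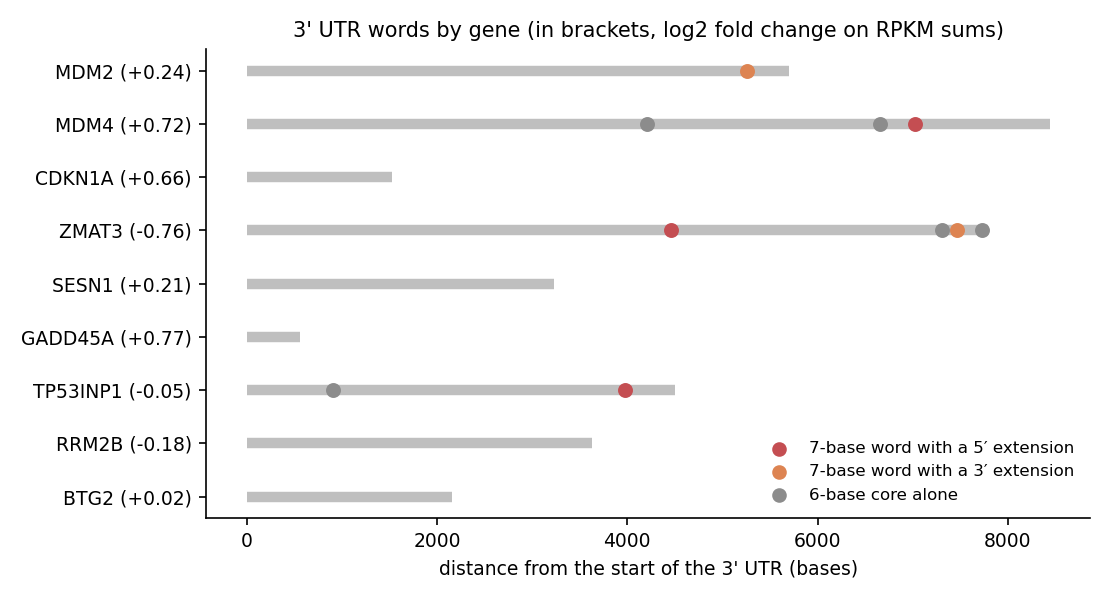
Positions of the searched words (points) along the 3′ UTR of the canonical GENCODE 44 transcript of each gene (grey bars, distance in bases from the start of the UTR), with the log2 fold change on RPKM sums in brackets. ZMAT3 has 4 words, 3 of them in the last 500 bases, MDM4 has 3, TP53INP1 2 and MDM2 1, and the other 5 genes have none.

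SESN1 (ENSG00000080546.9, chr6:109307640-109416022, minus strand, GRCh37) encodes sestrin 1, a stress protein that limits oxidative damage and restrains mTORC1. Its level was 14.3, 19.5, 22.2, 16.1 and 17.8 RPKM in SRp55 siRNA replicates 1 to 5, against 13.6, 14.3, 15.1, 15.1 and 12.9 RPKM in control siRNA replicates 1 to 5. The SRp55 siRNA library was the higher in all 5 pairs, and replicate 1 kept the groups from separating. SESN1 had a log2 difference of 0.21 on RPKM sums (SE 0.12, limma adjusted p = 0.17) and 0.31 on summed reads (SE 0.12, adjusted p = 0.13). With the replicate block the adjusted p was 0.083 on RPKM sums and 0.0027 on summed reads, and without SRp55 siRNA replicate 1 it was 0.049 on summed reads. With median-of-ratios scaling of the RPKM sums the limma adjusted p was 0.41.

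Its relatives stood at higher levels. SESN3 rose, with 41.9 ± 7.30 RPKM with SRp55 siRNA and 28.1 ± 3.94 RPKM with control siRNA (log2 fold change 0.45, limma adjusted p = 0.048), but this call held in only 1 of 10 fits without 1 library, at adjusted p up to 0.11, and was lost with median-of-ratios scaling at an adjusted p of 0.086 and without the filter on low values at 0.063. SESN2 averaged 22.5 ± 2.75 RPKM with SRp55 siRNA and 18.4 ± 1.17 RPKM with control siRNA (SD, n = 5; adjusted p = 0.15, or 0.042 with the replicate block). The SESN1 transcript ENST00000356644.7 was at 1.20 RPKM in SRp55 siRNA replicate 1, against 6.05 to 11.2 RPKM in the other 4 SRp55 siRNA libraries and 6.002 to 9.54 RPKM in control siRNA libraries.

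TP53INP1 (ENSG00000164938.9) encodes a stress protein that acts with p53 in the nucleus and in autophagy. Its level ranged from 16.9 to 30.8 RPKM, with a median of 27.7, in SRp55 siRNA libraries, against 18.6 to 31.2 RPKM, with a median of 25.2, in control siRNA libraries. In RPM it was lower in 4 of 5 pairs, at 113, 122, 122, 126 and 83.8 with SRp55 siRNA, against 156, 150, 148, 112 and 121 with control siRNA. TP53INP1 had a log2 difference of -0.05 on RPKM sums (SE 0.18, limma adjusted p = 0.88) and -0.27 on summed reads (SE 0.13, adjusted p = 0.15). The span of NDUFAF6 overlaps that of this gene on the opposite strand, as the span of CPM overlaps that of MDM2. Whether their exons overlap was not examined. The use of strand in counting is not given in the sources used here, so reads of any shared exon stretch cannot be told apart.

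The short TP53INP1 transcript ENST00000378776.4, of 590 bases, held 27.1, 45.2, 36.3, 34.8 and 35.9% of the gene's RPKM in SRp55 siRNA replicates 1 to 5, against 25.5, 19.5, 19.9, 23.8 and 16.03% in control siRNA replicates 1 to 5. The groups did not overlap, and replicate 1 of each group came closest. The 2 long transcripts were both lower in share of RPKM in every SRp55 siRNA library of a pair, with ENST00000448464.2 at 50.7% ± 5.70 with SRp55 siRNA and 60.2% ± 2.55 with control siRNA (SD, n = 5). In reads ENST00000448464.2 held 74.6% ± 4.54 with SRp55 siRNA and 74.1% ± 0.72 with control siRNA, so its share was not lower there. Of the reads the short transcript made up 5.63% ± 1.502 of the gene with SRp55 siRNA and 2.72% ± 0.60 with control siRNA. It was picked after its values were seen, and its gene did not pass the usage test given above.

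TP53INP2, the relative that acts in autophagosome formation, rose, with 23.5 ± 1.34 RPKM with SRp55 siRNA and 17.8 ± 0.99 RPKM with control siRNA (SD, n = 5; log2 fold change 0.28, limma adjusted p = 0.031). This call held in 2 of 10 fits without 1 library on RPKM sums and in 10 of 10 on summed reads, and it was lost with median-of-ratios scaling at an adjusted p of 0.071.

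RRM2B (ENSG00000048392.7) encodes p53R2, the ribonucleotide reductase subunit that supplies deoxynucleotides for DNA repair outside S phase. Its level ranged from 9.34 to 13.7 RPKM, with a median of 13.4, in SRp55 siRNA libraries, against 10.8 to 13.5 RPKM, with a median of 12.6, in control siRNA libraries. The groups overlapped. Relative to the median gene, the log2 difference of RRM2B was -0.18 on RPKM sums (SE 0.13) and -0.21 on summed reads (SE 0.11, limma adjusted p = 0.17). On RPKM sums the limma adjusted p was 0.80, for the change before the median shift was taken off. With median-of-ratios scaling it was 0.45. The S phase subunit RRM2 averaged 245 ± 18.5 RPKM with SRp55 siRNA and 178 ± 35.6 RPKM with control siRNA, with a limma adjusted p of 0.086, or 0.026 with the replicate block. The large subunit RRM1 averaged 138 ± 17.5 RPKM with SRp55 siRNA and 105 ± 13.3 RPKM with control siRNA (SD, n = 5), with an adjusted p of 0.11, or 0.028 with the replicate block.

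Of 42 regulators of p53, all tested, 1 rose and none fell on RPKM sums, which is 2.38% against 5.02% of all genes, with a median log2 fold change of 0.09. At an unadjusted p under 0.05 there were 9, or 21.4%, against 21.9% of all genes. On summed reads 3 rose and 1 fell, or 9.52% against 17.2% of all genes. These shares were at or below those over all genes. The gene that rose was USP2, a deubiquitinase known to stabilise MDM2, at 9.43 ± 1.15 RPKM with SRp55 siRNA and 6.09 ± 0.44 RPKM with control siRNA (SD, n = 5; log2 fold change 0.48, limma adjusted p = 0.013). It remained called in all 10 fits without 1 library on either scale.

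Of 72 other known targets of p53, 57 passed the filter, of which 4 rose and 2 fell on RPKM sums, or 10.5% against 5.02% of all genes, with a median log2 fold change of 0.04. On summed reads 5 rose and 6 fell, or 19.3% against 17.2% of all genes, and with the replicate block on RPKM sums 6 rose and 4 fell, or 17.5% against 13.1%. With median-of-ratios scaling 2 rose and 3 fell, or 8.77% against 6.85%. Apart from the first, these shares lay near those over all genes. At an unadjusted limma p under 0.05 on RPKM sums there were 14 of the 57, or 24.6%, against 21.9% of all genes. On RPKM sums without block or scaling the rises were PMAIP1, which encodes the proapoptotic protein NOXA, KITLG, the ligand of the receptor KIT, RAP2B, a small GTPase, and SESN3. The falls were PERP, a membrane protein of desmosomes that p53 induces in apoptosis, and ORAI3, a calcium channel subunit.

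KITLG averaged 5.95 ± 1.53 RPKM with SRp55 siRNA and 3.05 ± 0.82 RPKM with control siRNA (SD, n = 5; log2 fold change 0.75, limma adjusted p = 0.037). PERP averaged 27.1 ± 4.64 RPKM with SRp55 siRNA and 39.0 ± 2.36 RPKM with control siRNA (log2 fold change -0.64, adjusted p = 0.041). ORAI3 averaged 6.60 ± 1.07 RPKM with SRp55 siRNA and 9.99 ± 1.61 RPKM with control siRNA (log2 fold change -0.67, adjusted p = 0.043). KITLG was higher in 5 of 5 pairs, and PERP and ORAI3 were lower in 5 of 5. The log2 fold change was 0.40 for RAP2B (adjusted p = 0.027) and 0.60 for PMAIP1 (adjusted p = 0.042), and both were higher in 5 of 5 pairs. On RPKM sums each of these 5 calls was lost in 6 to 9 of the 10 fits without 1 library, at adjusted p up to 0.10, while on summed reads all 5 were called in all 10. Without the filter on low values the calls of KITLG (adjusted p = 0.054), PMAIP1 (0.059), PERP (0.051) and ORAI3 (0.055) were lost, and with median-of-ratios scaling that of KITLG (0.068).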

How the data were processed

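TopHat and GRCh37 (hg19) are named in the submitters' processing notes, with no version. Quantifier, annotation release and strand handling: not given in the sources used here. Every deposited file holds 155130 transcripts with an RPKM and an estimated read count, which the authors wrote as text in 1 field; these values are neither bare RPKM nor bare count columns, so they were read from that other, mixed field as deposited. Transcript RPKM and reads were summed per gene. Gene symbols came from GENCODE 44 and matched 95.0% of genes. The test for genes averaging 0.5 RPKM or more was limma (version 3.58.1, in R 4.3.3) on log2(RPKM + 0.5), trend and robust options on, without a block, at an adjusted p of 0.05; this scale understates changes of low genes. Usage is the percent of a gene's RPKM sum, for transcripts with at least 0.5 RPKM and 5%, by limma's diffSplice. Single values were tested by exact permutation. The fits were tested on simulated data. Alternatives were median-of-ratios scaling, summed reads, pseudocounts of 0.1 and 1, other filters, a replicate block, trend and robust options off, and each library left out. Deviations from group means correlated at 0.13 to 0.41 between libraries of equal number and at most 0.12 otherwise, so the numbers pair the libraries. Named genes were the 9 members whatever their p and the called genes of the 2 lists; members and lists were chosen with earlier results of these data known. Some results are not reported here. Read depth is not the only limit on precision. Each of the 9 genes had between 752 and 23947 estimated reads per library. Yet the coefficient of variation of MDM2 in SRp55 siRNA libraries was 41.0% on RPKM and 8.14% on reads.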

Additional observations from a re-analysis of the deposited data

Results flagged for a closer look

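In 5 of 52 groups of 5 libraries examined, 1 library lay far from the other 4 by the ratio of its gap to the group's range; chance gives about 1 in 20. GADD45A in SRp55 siRNA replicate 1 stood at 99.88 RPKM, against 31.39 to 32.92 RPKM in the other SRp55 siRNA libraries. The same library had 109.1 RPM of GADD45A (reads per M assigned reads), against 50.4 to 62.26 in the others, and most of its excess was assigned to the short transcript ENST00000370985.3. ZMAT3 in control siRNA replicate 3 had 41.65 RPM, against 30.54 to 33.69 in the other control siRNA libraries, which did not show in its RPKM. The leading MDM2 transcript ENST00000462284.1 held 61.78% of MDM2 RPKM in SRp55 siRNA replicate 2, against 15.30 to 25.73% in the others of its group. The ratio of MDM4 to MDM2 in RPKM was 0.8006 in control siRNA replicate 4, against 0.1498 to 0.2732 in the other control siRNA libraries.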

How the results depend on the processing

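The number of the 9 genes called was 1 on RPKM sums, 3 on summed reads, 2 with median-of-ratios scaling and 3 with the replicate block that pairs the libraries, and between 1 and 3 with each library left out. Genes called among all tested numbered 684, against 2340 on summed reads, 1784 with the replicate block and 259 to 1085 with a library left out. On summed reads, alternatives chosen after seeing the data called 4 members with the replicate block, against 36.3% of all genes, and 2 to 4 with a library left out, against 12.6 to 19.2%. ZMAT3 kept its direction and call in every alternative run. On summed reads the log2 fold change of MDM2 turned to -0.0359, and with a library left out it ranged from -0.0092, without control replicate 4, to 0.451. That of TP53INP1 was 0.0288 without the filter on low values and ranged from -0.1182 to 0.0566 with a library left out, and that of BTG2 ranged from -0.083 to 0.0777; none of these passed the test, and the cause was not tested. The other pseudocounts, filters and limma options changed no call among the 9 genes. No member was called for transcript usage under any alternative, and 20 to 66 genes were among all tested. For the single values the replicate block, as an exact test within 5 pairs, cannot give a p below 0.0625, so it says nothing of their calls.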
